A study of Caenorhabditis elegans with 18 samples.

Results

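The genes described are 10 that act in meiotic recombination in Caenorhabditis elegans, of 26709 genes with read counts, and they were chosen by name: spo-11, dsb-1, dsb-2, him-17, rad-51, brc-1, him-14, msh-5, cosa-1 and zhp-3. Their RNAs were counted in iCLIP libraries of the RNA-binding proteins FBF-1 and FBF-2. In iCLIP (individual-nucleotide resolution crosslinking and immunoprecipitation), RNA is crosslinked to a protein by UV light, the protein is immunoprecipitated and the attached RNA fragments are sequenced. All worms were XX early adults with a hermaphroditic soma, raised at 25°, whose germline made only sperm or only oocytes. The 18 libraries comprised 3 of FBF-1 and 3 of FBF-2 from each germline gender, and 3 no-antibody controls from each. FBF-1 was measured in fbf-1(ok91) animals that carried the single-copy transgene 3xflag::fbf-1, and FBF-2 in fbf-2(q738) animals that carried 3xflag::fbf-2. The oogenic animals had these genotypes alone, and the spermatogenic animals also carried the temperature-sensitive gain-of-function allele fem-3(q22). Each protein was thus measured as a tagged transgene product in a strain lacking that endogenous gene. The antibody was anti-FLAG, and the controls went through the procedure with beads that had no antibody. Whether the controls were made from the FBF-1 or the FBF-2 strain is not given in the sources used here.

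FBF-1 and FBF-2 are nearly identical PUF proteins of the germline, known for keeping germline stem cells and for repressing RNAs to which they bind, usually through elements in the 3' untranslated region. Meiotic recombination begins when programmed breaks are made in DNA. The breaks are then processed and repaired on the homologous chromosome, and a few of them become crossovers, which hold homologs together until the first meiotic division. Stem cells do not yet do this: the proteins of recombination act in germ cells that have left the stem cell zone and entered meiosis. Several of the genes are named him for the high incidence of males, a result of lost X chromosomes, in their mutants.

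Whole animals were lysed, so a difference in binding frequency cannot be separated from one in the number of germ cells that hold an RNA or in the amount of that RNA per cell. Depth ran from 18749 to 1833483 counts on genes. The shallowest library was FBF-1 oogenic replicate 1, in which 1 count was worth 53.3 RPM (counts scaled to 1000000 counts on genes) and 0 counts allowed up to 160 RPM, the level of 3 counts. The controls held 59621 to 283777 counts. Counts on rRNA took 11.9% to 15.4% of a spermatogenic FBF library, 13.2% to 37.8% of an oogenic one, 24.6% to 28.3% of a spermatogenic control and 43.2% to 47.7% of an oogenic control, so that RPM values of different groups have different denominators. The sequencing lane in the labels was 1 for spermatogenic FBF libraries and oogenic controls, 2 for oogenic FBF libraries and 3 for spermatogenic controls. The germline gender and the lane of the FBF libraries therefore cannot be told apart. Within each germline the FBF libraries and the controls were in different lanes, so antibody and lane cannot be told apart there either. The labelled germlines had their markers: 25 sperm genes summed to 2897 to 3524 RPM in spermatogenic and 189 to 502 RPM in oogenic FBF libraries, and 21 oocyte genes to 4674 to 5707 and 7204 to 16101 RPM. Of other cell types, 6 yolk genes of the intestine summed to 6456 to 12260 RPM with antibody and 15519 to 16418 RPM without it. In the same order 6 muscle genes summed to 3310 to 5292 and 5684 to 7696 RPM, and 4 neuronal genes to 408 to 980 and 127 to 220 RPM. The neuronal sum was mostly snb-1, at 608 and 524 RPM with FBF-1 and FBF-2 and 120 RPM without antibody in spermatogenic germlines. There rab-3 (11.6, 11.9 and 28.5 RPM), unc-13 (19.8, 23.0 and 53.5 RPM) and unc-31 (6.62, 4.89 and 10.7 RPM) were lower with FBF. Of the yolk genes in spermatogenic germlines, vit-3 (1261, 919 and 648 RPM) and vit-4 (1014, 656 and 583 RPM) were higher with FBF. The yolk genes vit-1, vit-2, vit-5 and vit-6 were lower. A list of 7 germline genes summed to 5672 to 11913 RPM with antibody and 386 to 714 RPM without it. With antibody most of it was the FBF target gld-1: 3517 of 6046 RPM with spermatogenic FBF-1 and 9396 of 10995 RPM with oogenic FBF-2. The FBF targets fog-1 (1486 RPM) and fog-3 (923 RPM) led the sperm sum of 3347 RPM with spermatogenic FBF-2. Both sums thus weigh binding as well as cell content. Without antibody the sperm genes summed to 948 to 992 RPM in spermatogenic and 79.1 to 106 RPM in oogenic germlines. The part of these differences in the results was not tested.

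Together the 10 RNAs held 1159 ± 15.1 RPM in FBF-1 libraries and 1543 ± 162 RPM in FBF-2 libraries of spermatogenic germlines, 1096 ± 119 RPM and 986 ± 74.4 RPM in those of oogenic germlines, 176 ± 42.8 RPM in spermatogenic controls and 132 ± 18.9 RPM in oogenic controls (SD, n = 3 each). The dsb-1 RNA alone gave 30.9% of these reads in spermatogenic FBF-1 libraries, 38.7% in spermatogenic FBF-2 libraries and 39% and 51% in the oogenic ones. The 39% is a mean that includes the shallowest library, where dsb-1 had 9 of 18 counts. The rad-51 RNA gave 23.5%, 17.1%, 23.8% and 15.4% in the same order. Reads on the set were thus carried mainly by a break-formation gene and by the recombinase gene.

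**Figure D1:**
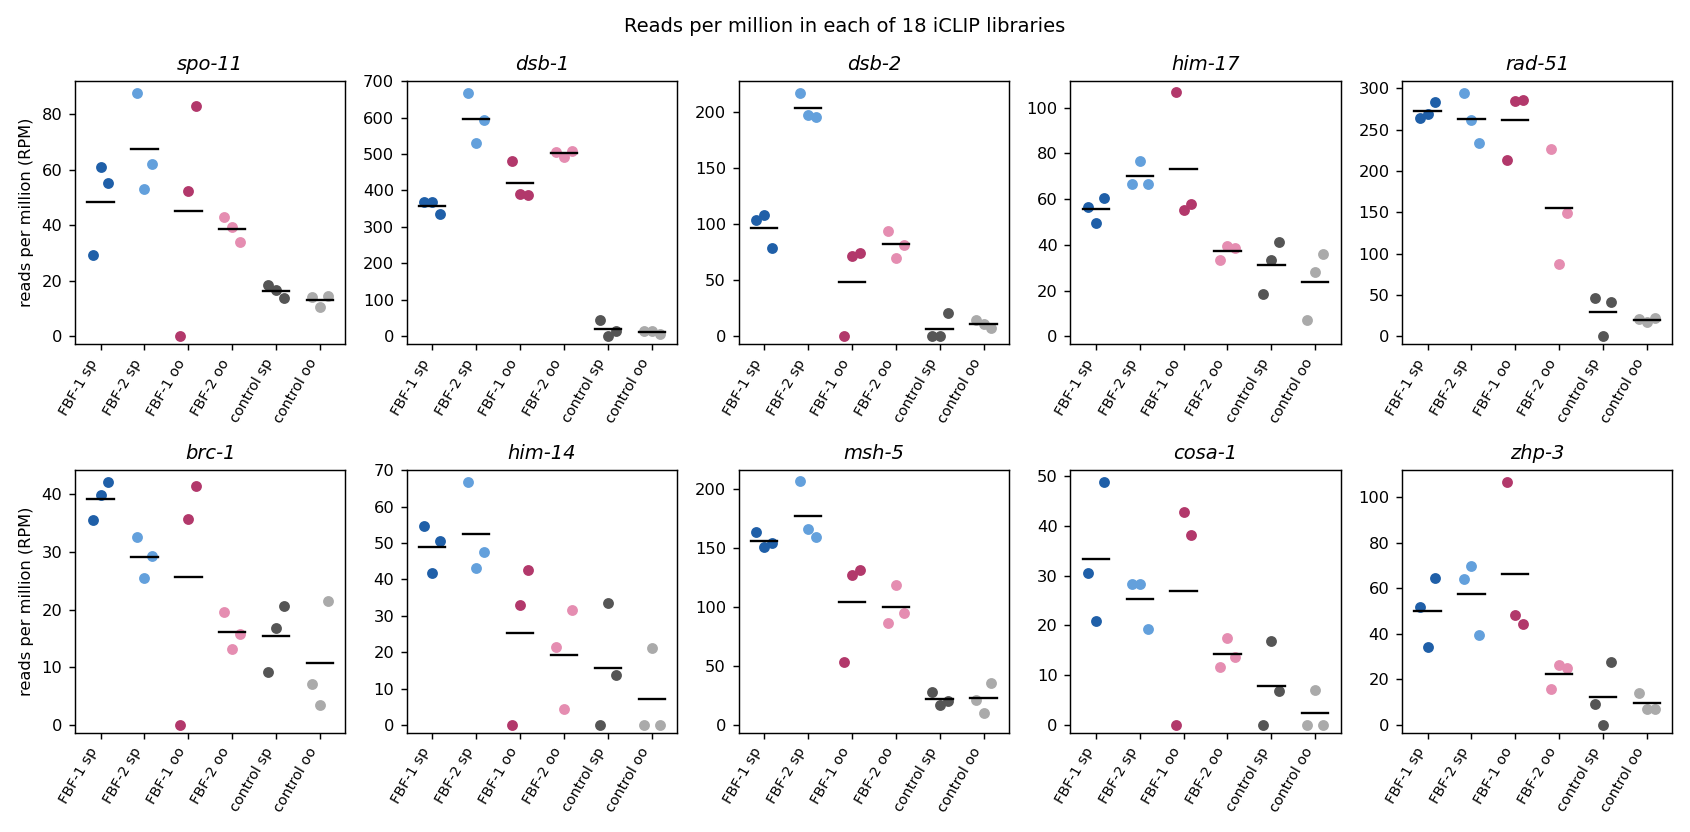
RPM (vertical axis, linear, from 0) in each of the 18 libraries for the 10 RNAs, grouped by protein and germline (sp, spermatogenic; oo, oogenic). Points are replicates 1, 2 and 3 from left to right and bars are means; dsb-1 lies at 337 to 667 RPM in every FBF library and at 0 to 45.9 RPM in every control, while points at 0 in the FBF-1 oogenic group belong to the library of 18749 counts.

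The comparison with the controls asks which of these RNAs were recovered with FBF beyond the background of the beads. FBF-1 and FBF-2 libraries were summed in the pairs the study used, into 3 combined replicates a germline. FBF-1 gave 43.8%, 46.5% and 57.7% of the counts in the spermatogenic sums and 4.08%, 76.1% and 78.2% in the oogenic ones. An RNA was called higher when edgeR's quasi-likelihood test gave an adjusted p (Benjamini-Hochberg, over all RNAs tested) under 0.01 and the log2 fold change exceeded 1. In spermatogenic germlines 7 of the 10 RNAs were called higher, where 29.2% of all 8269 RNAs tested were: spo-11, dsb-1, dsb-2, rad-51, him-14, msh-5 and zhp-3. In oogenic germlines 7 of 10 were called higher, where 29.6% of 6424 RNAs tested were: spo-11, dsb-1, dsb-2, rad-51, msh-5, cosa-1 and zhp-3. None was lower in either germline, where 5.78% and 1.7% of RNAs were. All 10 passed the minimum, a mean of 20 counts over the combined FBF replicates, which used FBF libraries only. Single replicates could lie under it: in oogenic combined replicate 1, cosa-1 had 6 counts and brc-1 had 7. The median log2 fold change was 2.12 for the 10 and 0.71 for all RNAs in spermatogenic germlines, and 2.32 and 0.90 in oogenic germlines.

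Of the break-formation genes, dsb-1 had the largest excess of the 10. DSB-1 is required for the breaks to form. Its RNA (WBGene00008580, WBcel235 chromosome IV, 12408925 to 12410470, plus strand) was at 369, 369 and 337 RPM in spermatogenic FBF-1 libraries, at 667, 529 and 593 RPM in spermatogenic FBF-2 libraries, and at 45.9, 0 and 13.7 RPM in their controls. In oogenic germlines it was at 480, 391 and 387 RPM with FBF-1, at 505, 492 and 508 RPM with FBF-2, and at 14.1, 14.1 and 7.19 RPM in the controls. The highest control lay far under the lowest FBF library in both germlines. The log2 fold change over control was 4.41 (SE 0.34, adjusted p = 1.24e-35) in spermatogenic and 5.15 (SE 0.35, adjusted p = 1.63e-12) in oogenic germlines. Leaving out single replicates gave 4.004 to 5.597 in spermatogenic germlines, the highest without control replicate 1, and 4.96 to 5.35 in oogenic ones. The pooled RPM ratio of 21.1 in spermatogenic germlines had an exact 95% interval of 10.2 to 52.4, which covers counting error only.

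DSB-2, a relative of DSB-1, is also needed for breaks. Its RNA (WBGene00194892, chromosome II, 14411095 to 14412218, plus strand) was at 103, 109 and 78.6 RPM in spermatogenic FBF-1 libraries, at 217, 198 and 196 RPM in spermatogenic FBF-2 libraries, and at 0, 0 and 20.6 RPM in their controls. In oogenic germlines it was at 0, 71.6 and 74.2 RPM with FBF-1, 94.0, 70.2 and 81.6 RPM with FBF-2, and 14.1, 10.6 and 7.19 RPM in the controls. Only the shallow FBF-1 oogenic library, with 0 counts, reached down into the range of the controls. The log2 fold change over control was 3.94 (SE 0.52, adjusted p = 5.71e-13) and 2.82 (SE 0.49, adjusted p = 2.95e-05) in edgeR's test. The spermatogenic value rests on 3 control counts, all in control replicate 3, and the pooled ratio of 15.4 had an interval of 5.26 to 74.9. Without that replicate the controls were at 0 counts and the fitted value was 10.38, which is not a bound.

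SPO-11 is the topoisomerase-like enzyme that cuts the DNA. Its RNA (WBGene00004985, chromosome IV, 11123133 to 11124862, minus strand) was at 29.4 to 87.6 RPM in the 6 spermatogenic FBF libraries and at 13.7 to 18.4 RPM in their controls, which did not overlap. In oogenic germlines it was at 34.0 to 82.9 RPM in 5 FBF libraries, at 0 RPM in the shallow one and at 10.6 to 14.4 RPM in the controls. The log2 fold change over control was 1.82 (SE 0.57, adjusted p = 0.0042) and 2.13 (SE 0.54, adjusted p = 0.0018) in edgeR's test. HIM-17, a chromatin-associated protein that makes meiotic chromatin competent for breaks, was the member nearest to the controls. Its RNA (WBGene00001874, chromosome V, 13176711 to 13180185, plus strand) was at 49.5 to 76.8 RPM against 18.4 to 41.2 RPM in spermatogenic germlines, and at 33.3 to 107 RPM against 7.07 to 35.9 RPM in oogenic germlines. The 107 RPM was 2 counts in the shallow library. The log2 fold change was 1.00 in both (SE 0.46, adjusted p = 0.0574, and SE 0.45, adjusted p = 0.068), and it was not called.

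Of the repair genes, rad-51 stood well above control and brc-1 did not pass. RAD-51 is the recombinase that coats the resected ends and searches for a homologous template. Its RNA (WBGene00004297, chromosome IV, 10281634 to 10284244, minus strand) was at 265, 268 and 284 RPM in spermatogenic FBF-1 libraries, at 294, 262 and 234 RPM in spermatogenic FBF-2 libraries, and at 45.9, 0 and 41.2 RPM in their controls. In oogenic germlines it was at 213, 285 and 285 RPM with FBF-1, 227, 87.8 and 150 RPM with FBF-2, and 21.2, 17.6 and 21.6 RPM in the controls. Every FBF library lay above every control, and the oogenic FBF-2 libraries were the most spread. The log2 fold change over control was 2.94 (SE 0.33, adjusted p = 2.71e-17) and 3.50 (SE 0.39, adjusted p = 2.31e-08) in edgeR's test. BRC-1 is the ortholog of human BRCA1, a ubiquitin ligase subunit in break repair. Its RNA (WBGene00000264, chromosome III, 3853102 to 3862968, minus strand) was at 25.6 to 42.2 RPM with FBF in spermatogenic germlines against 9.18 to 20.6 RPM, and at 0 to 41.5 RPM in oogenic germlines against 3.52 to 21.6 RPM. These are 184 and 122 FBF counts against 5 control counts in each germline, and the log2 fold changes of 1.09 (SE 0.64, adjusted p = 0.147) and 1.71 (SE 0.65, adjusted p = 0.0325) were not called.

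Of the crossover genes, msh-5 had the most FBF counts and the others were at lower counts. Both msh-5 and zhp-3 were called in both germlines, him-14 only in spermatogenic and cosa-1 only in oogenic ones. In oogenic germlines the log2 fold change of cosa-1 (3.01) was larger than that of msh-5 (2.51). MSH-5 and HIM-14, the ortholog of MSH4, form a MutS-type complex that holds recombination intermediates on the way to crossovers. The msh-5 RNA (WBGene00003421, chromosome IV, 13155233 to 13164054, plus strand) was at 163, 150 and 154 RPM in spermatogenic FBF-1 libraries, at 206, 166 and 159 RPM in spermatogenic FBF-2 libraries, and at 27.6, 16.8 and 20.6 RPM in their controls. In oogenic germlines it was at 53.3, 127 and 131 RPM with FBF-1, 86.1, 119 and 95.2 RPM with FBF-2, and 21.2, 10.6 and 35.9 RPM in the controls. No FBF library overlapped the controls, but the 53.3 RPM was 1 count in the shallow library. The log2 fold change over control was 2.89 (SE 0.41, adjusted p = 2.36e-11) and 2.51 (SE 0.43, adjusted p = 2.19e-05) in edgeR's test. The him-14 RNA (WBGene00001872, chromosome II, 7065020 to 7069966, minus strand) was at 41.9 to 66.8 RPM in spermatogenic FBF libraries against 0 to 33.5 RPM, and at 0 to 42.5 RPM in oogenic ones against 0 to 21.1 RPM. It was called in spermatogenic germlines (1.98, SE 0.62, adjusted p = 0.0044) and not in oogenic ones (1.63, SE 0.64, adjusted p = 0.0359). Its oogenic control counts were all in replicate 2, without which the fitted value was 7.71 (adjusted p = 0.0050 in edgeR's test), and its spermatogenic value ran from 1.37 without control replicate 1 to 2.67 without control replicate 2. Annotated exons of him-14 share 154 bases with nos-2 on the opposite strand, and the strand setting of the counting is not given in the sources used here, so reads of this pair cannot be fully separated.

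COSA-1 is a cyclin-like protein that marks the sites designated as crossovers, and ZHP-3 is a RING-finger protein that acts there as well. The cosa-1 RNA (WBGene00022172, chromosome III, 2726116 to 2731670, plus strand) was at 19.2 to 48.8 RPM in spermatogenic FBF libraries against 0 to 16.8 RPM, and at 0 to 42.7 RPM in oogenic ones against 0 to 7.05 RPM. Both control groups held 2 counts in all, those of oogenic germlines both in replicate 2. In edgeR's test the log2 fold change was 2.25 (SE 0.84, adjusted p = 0.0182), not called, and 3.01 (SE 0.83, adjusted p = 0.0038), called. Leaving out oogenic control replicate 2, with the others at 0 counts, gave a fitted 7.58, which was not called. Of the fits that left out single replicates, only that without the combined oogenic FBF replicate 1 kept the call. The pooled ratios of 4.88 and 8.78 had intervals of 1.33 to 40.6 and 2.38 to 73.4. Exons of cosa-1 share 178 bases with Y71H2AM.12 on the opposite strand, with the same limit as for him-14. The zhp-3 RNA (WBGene00006976, chromosome I, 8529376 to 8531342, minus strand) was at 34.3 to 69.7 RPM in spermatogenic FBF libraries against 0 to 27.5 RPM, and at 15.7 to 107 RPM in oogenic ones against 7.05 to 14.1 RPM. The 107 RPM was 2 counts in the shallow library. In edgeR's test zhp-3 was called in both germlines, at 1.81 (SE 0.57, adjusted p = 0.0046) and 2.05 (SE 0.58, adjusted p = 0.0051). Without spermatogenic control replicate 3 the value was 3.21.

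With combined replicates, all 10 RNAs lay above the controls without overlap in spermatogenic germlines, as did 46.7% of RNAs tested, and 9 of 10 in oogenic germlines, as did 46.3%. The exception was brc-1. None lay below its controls, where 12.7% and 9.48% of RNAs did. Calls of the RNAs with fewer FBF counts depended on the scaling. With TMM factors, with library sizes that leave out rRNA, tRNA and mitochondrial counts, or in DESeq2, the same 4 RNAs were called in both germlines: dsb-1, dsb-2, rad-51 and msh-5. The background share then fell to 21.7%, 19% and 18.4% in spermatogenic and 15.4%, 16.5% and 12.3% in oogenic germlines. Leaving out spermatogenic control replicate 1, or the combined oogenic FBF replicate 3, left 4 calls in its germline. Spermatogenic FBF libraries set against the oogenic controls of their own lane gave 10 of 10 calls, where 46% of RNAs were called, and oogenic FBF libraries against the spermatogenic controls gave the 4 RNAs named above, where 26.6% were. No control shared the lane of the oogenic FBF libraries. With 1 protein at a time, against the same controls, FBF-1 libraries gave 7 of 10 calls in spermatogenic germlines (cosa-1 in place of spo-11), where 37.9% of RNAs were called, and 9 of 10 in oogenic ones (all but him-17), where 48.4% were. FBF-2 libraries gave the 7 RNAs of the combined replicates in spermatogenic germlines, where 38.3% were called, and in oogenic ones all 4 that reached the count minimum, dsb-1, dsb-2, rad-51 and msh-5, where 39.4% were.

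**Figure D2:**
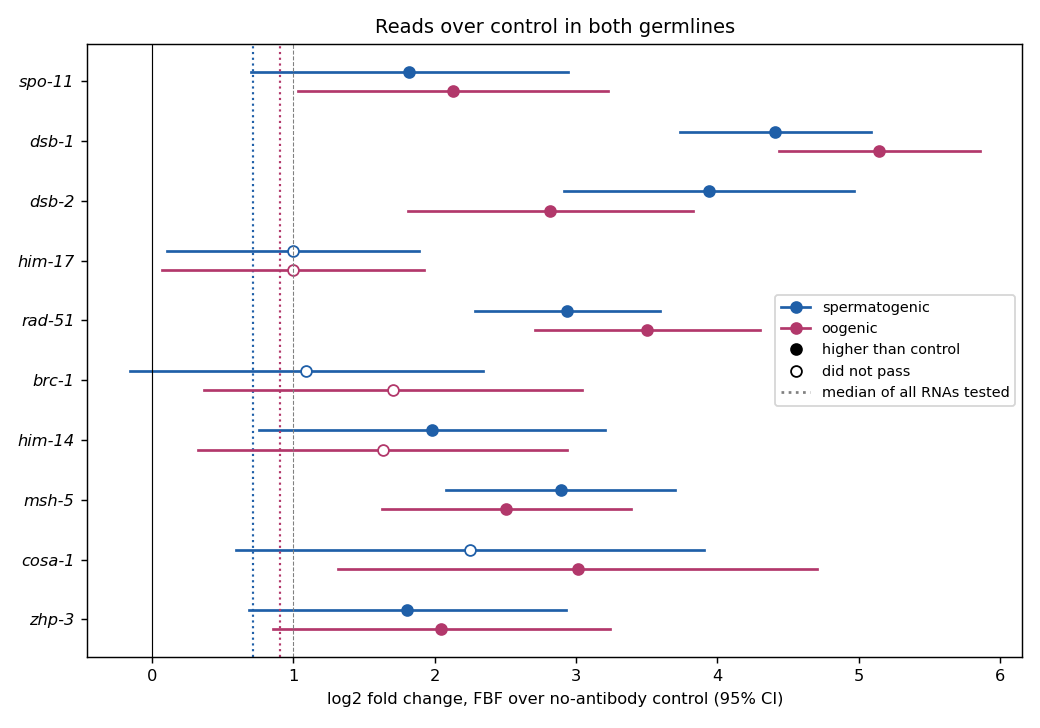
Log2 fold change over the no-antibody controls (horizontal axis) for the 10 RNAs in spermatogenic (blue) and oogenic (red) germlines, with 95% confidence intervals from edgeR and 3 combined FBF replicates against 3 controls each. Filled points were called higher and open points did not pass; dotted lines are the medians of all RNAs tested (0.71 and 0.90), the dashed line is the 2-fold minimum, and dsb-1 lies farthest to the right in both germlines.

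Levels were compared between genes per kilobase of annotated exon. In spermatogenic germlines the mean over 6 FBF libraries was 368 RPM per kb for dsb-1, 175 for rad-51, 160 for dsb-2, 41.7 for zhp-3, 40.6 for spo-11, 39.5 for msh-5, 23.1 for cosa-1, 20.3 for him-17, 19.3 for him-14 and 17.3 for brc-1. In oogenic germlines it was 355 RPM per kb for dsb-1, 136 for rad-51, 69.7 for dsb-2, 34.3 for zhp-3, 29.3 for spo-11, 24.2 for msh-5, 17.8 for him-17, 16.2 for cosa-1, 10.6 for brc-1 and 8.45 for him-14. These oogenic means include the library of 18749 counts, where zhp-3 had 107 RPM from 2 counts and spo-11 and dsb-2 had 0 counts. By the median of the 6 oogenic libraries, spo-11 (28.9) lay over zhp-3 (27.3) and him-14 (10.1) over brc-1 (8.97). Neighbours in the order of means whose libraries did not overlap were dsb-1 over rad-51 in both germlines and dsb-2 over zhp-3 in spermatogenic ones. All other neighbours overlapped; rad-51 exceeded dsb-2 in 3 of 6 spermatogenic and 5 of 6 oogenic libraries. The level of dsb-1 was above that of 98.3% of 18489 genes in spermatogenic and 98.4% of 17138 genes in oogenic FBF libraries, and the lowest of the 10 were above 67.6% (brc-1) and 60.2% (him-14). Annotated 3' untranslated regions ranged from 26 bases for spo-11 to 342 for rad-51, and the counts per gene do not show where in a gene the reads fell.

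The comparison of germline genders asks whether FBF bound these RNAs at different frequencies when the germline made sperm or oocytes. In edgeR's test with TMM scaling over 7501 RNAs, 0 of the 10 were called, where 10.2% of RNAs were higher and 4.71% lower in spermatogenic germlines. DESeq2 also called 0, and 4 of the 10 had an unadjusted p under 0.05. The RNA with the largest difference was dsb-2. Its combined replicates were at 169, 154 and 128 RPM in spermatogenic and at 78.3, 71.3 and 78.5 RPM in oogenic germlines, without overlap. The log2 difference was 0.78 (SE 0.16, 95% CI 0.45 to 1.12, adjusted p = 6.84e-04), which passed the p threshold and missed the 2-fold minimum. With no fold minimum it was the only member called, where 13.4% of RNAs were higher and 9.8% lower. Without the combined oogenic replicate 2 or 3 its adjusted p rose over 0.01, to at most 0.0169. With 6 separate FBF libraries a germline in place of the sums, the log2 difference was 0.66 (adjusted p = 0.122), over the p threshold. FBF-1 libraries alone gave a log2 difference of 0.38 (adjusted p = 0.0864) and FBF-2 libraries alone 0.74 (adjusted p = 4.13e-04), with 0 of 10 and 0 of 8 members called, where 8.38% and 5.87% of RNAs were higher. Both values were under the 0.78 of the sums, in which the share of FBF-1 differed between germlines. The part of that share in the dsb-2 difference was not tested.

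The other RNAs differed less. The log2 difference was 0.44 for him-14 (95% CI 0.07 to 0.81, adjusted p = 0.0645), 0.39 for zhp-3 (0.05 to 0.74, 0.0766) and 0.32 for msh-5 (0.04 to 0.60, 0.0722). For dsb-1 it was -0.15, with an interval of -0.54 to 0.24, from combined replicates of 536, 455 and 445 RPM in spermatogenic and 507, 415 and 413 RPM in oogenic germlines, which overlapped. For rad-51 it was 0.03, with an interval of -0.26 to 0.32. The remaining values were 0.17 for him-17, -0.05 for brc-1, -0.16 for cosa-1 and -0.23 for spo-11. By RPM, 5 of the 10 lay higher in spermatogenic germlines without overlap (dsb-2, him-14, msh-5, zhp-3 and him-17) and none lower, where 35.2% and 8.68% of all RNAs did. Whether the excess over the controls differed between germlines was tested with an interaction term over 7293 RNAs. It was called for 0 of 10 (0 also in DESeq2 and at an unadjusted p under 0.05), where 1.04% and 0.919% of RNAs were, and the estimates ran from -0.63 for cosa-1 to 1.31 for dsb-2 with an interval of -0.81 to 3.43. Interactions at this depth were thus bounded only loosely. No member reached a mean of 5 counts in the controls, the minimum for comparing the controls of both germlines. With no count minimum 0 of 10 were called, where 2.37% of 16446 RNAs were higher and 1.47% lower in spermatogenic controls. Counts this low limit what that fit can show.

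The libraries of each protein were compared to ask whether reads on these RNAs differed between FBF-1 and FBF-2. Each protein was measured in its own strain, so protein and strain cannot be told apart. In oogenic germlines rRNA took 16.9% and 13.2% of FBF-1 replicates 2 and 3 and 29.4% to 34.4% of FBF-2 libraries. In spermatogenic germlines dsb-2 was lower with FBF-1 than with FBF-2 by a log2 difference of -1.15 (SE 0.14, adjusted p = 6.47e-08), the only call of the 10, where 4% of 6203 RNAs were higher and 1.72% lower with FBF-1. The FBF-1 libraries (78.6 to 109 RPM) and the FBF-2 libraries (196 to 217 RPM) did not overlap. Without FBF-1 spermatogenic replicate 3 the difference was -0.94 (adjusted p = 1.04e-05), under the 2-fold minimum. For dsb-1 the log2 difference was -0.78 (SE 0.12, adjusted p = 9.45e-06), under 2-fold, with FBF-1 at 337 to 369 RPM and FBF-2 at 529 to 667 RPM. With no fold minimum both were called, where 12.1% of RNAs were higher and 10% lower. The other 8 ranged from -0.52 for spo-11 (adjusted p = 0.0938) to 0.47 for cosa-1 (adjusted p = 0.173), with rad-51 at 0.01 (95% CI -0.22 to 0.25). By RPM, dsb-1, dsb-2 and him-17 were lower with FBF-1 without overlap and brc-1 was higher, where 17.6% and 24.7% of RNAs were.

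In oogenic germlines 0 of the 9 RNAs tested were called (2 at an unadjusted p under 0.05, 0 in DESeq2), where 3.95% of 4737 RNAs were higher and 4.12% lower with FBF-1. The same RNAs, dsb-1 and dsb-2, had the lowest values. For dsb-1 the log2 difference was -0.87 (SE 0.15, adjusted p = 1.41e-07) and for dsb-2 -0.73 (SE 0.23, adjusted p = 0.0066), both under 2-fold. With no fold minimum both were called, where 9.67% of RNAs were higher and 11.4% lower. These sizes depended on TMM scaling: by library size they were -0.36 (adjusted p = 0.0358) and -0.22 (adjusted p = 0.46) in edgeR's test. The RPM ranges of dsb-1 were 387 to 480 with FBF-1 and 492 to 508 with FBF-2. The 480 RPM was 9 counts in the shallow library, without which FBF-1 was at 387 to 391 RPM. The other 7 ran from -0.10 for msh-5 to 0.69 for brc-1, and none passed. By RPM, him-17 and zhp-3 were higher with FBF-1 without overlap and dsb-1 was lower, where 25.8% and 5.07% of RNAs were. By library size zhp-3 (1.12, adjusted p = 0.0052) and brc-1 (1.19, adjusted p = 0.0055) were called higher with FBF-1, where 18.5% of RNAs were and the median of all RNAs moved from 0.01 to 0.52. The cosa-1 RNA was under the count minimum. Whether the difference between the proteins itself differed by germline was tested with an interaction term over the 12 FBF libraries and 5489 RNAs, a fit added after the data were seen. None of the 10 was called (0 in DESeq2, 1 at an unadjusted p under 0.05), where 4.19% and 2.28% of RNAs were. The estimate was 0.11 for dsb-1 (95% CI -0.28 to 0.49) and -0.40 for dsb-2 (95% CI -0.90 to 0.10), and the largest was -0.85 for spo-11 (adjusted p = 0.11). Scaled by library size, dsb-2, rad-51 and spo-11 were called lower, where 20.9% of RNAs were and the median of all RNAs moved from -0.05 to -0.53.

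**Figure D3:**
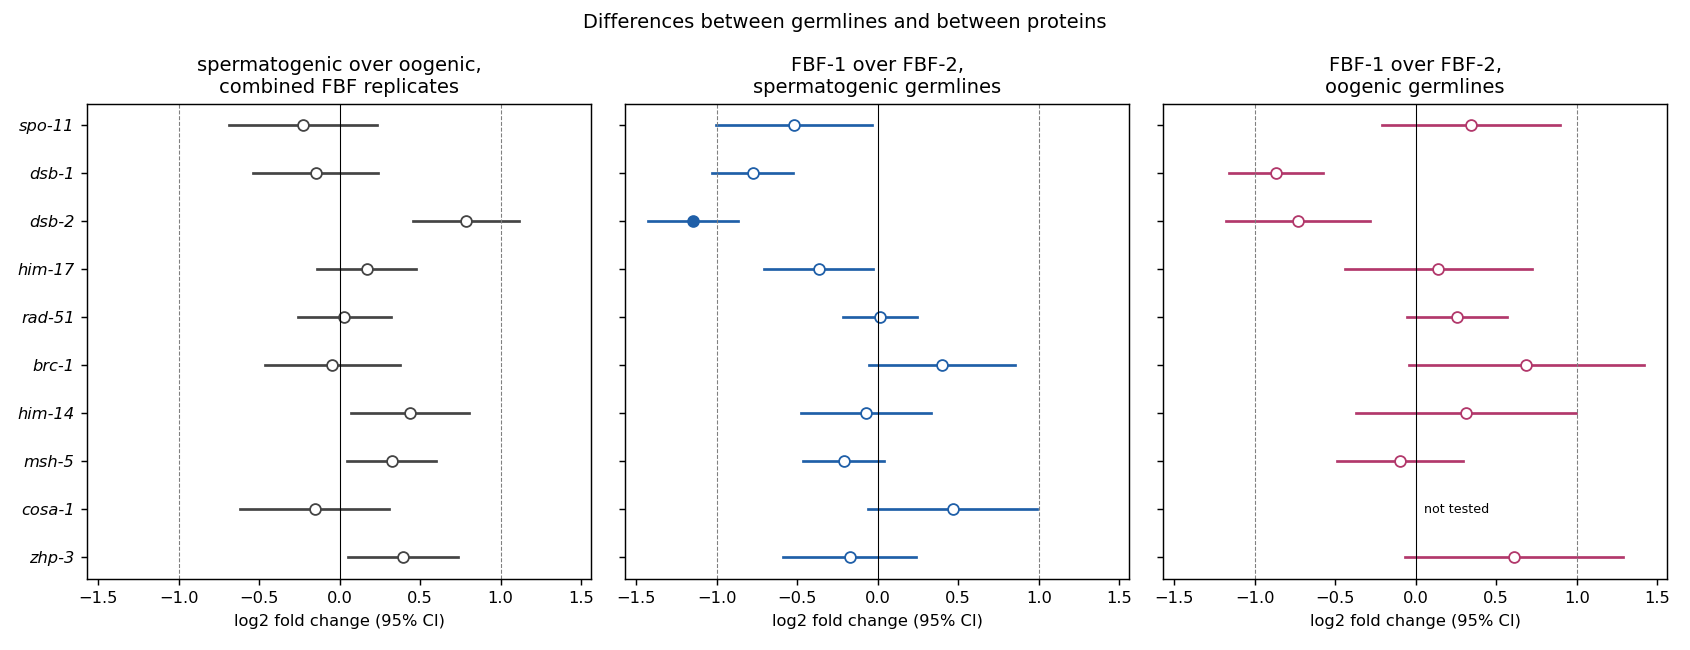
Log2 differences (horizontal axes) with 95% confidence intervals from edgeR for the 10 RNAs: spermatogenic over oogenic germlines with 3 combined FBF replicates each, and FBF-1 over FBF-2 with 3 libraries each in spermatogenic and in oogenic germlines. The filled point, dsb-2 in spermatogenic germlines at -1.15, is the only call; dashed lines mark the 2-fold minimum, and dsb-1 and dsb-2 lie left of 0 in both comparisons of the proteins.

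Other genes of recombination were followed as a list of 55, grouped by role. Over the controls, 34 of the 50 tested were higher in spermatogenic and 31 of the 49 tested in oogenic germlines, where 29.2% and 29.6% of all RNAs were, and none was lower, where 5.78% and 1.7% were. Their median log2 fold change was 2.41 (2.39 with the 3 genes that had 0 control counts set at their bounds) and 2.10. With TMM factors, 30 and 19 were higher, where 21.7% and 15.4% of all RNAs were, and in DESeq2 26 and 16, where 18.4% and 12.3% were. Without oogenic control replicate 2, 19 were higher in oogenic germlines. All 6 other genes of break formation were higher in both germlines, with fold changes from 2.32 to 6.38 in spermatogenic and 1.78 to 5.75 in oogenic germlines on the log2 scale; in oogenic germlines 5 of 6 were with TMM factors and in DESeq2. The highest of these was him-5, required for breaks on the X chromosome. Its RNA had 1473 FBF counts and 1 control count in spermatogenic germlines, a pooled RPM ratio of 85.5 with an interval of 15.3 to 3379, and 778 against 2 in oogenic ones, a ratio of 58.4 with an interval of 16.1 to 483.

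The lists for later steps were higher in part, beside 29.2% and 29.6% of all RNAs, and each holds few genes. In spermatogenic and oogenic germlines these were 4 and 2 of 5 resection genes, 5 and 3 of 6 crossover genes and 3 and 2 of 4 end-joining genes. They were also 6 and 7 of 9 strand exchange genes tested (12 listed) and 3 and 4 of 6 checkpoint genes tested (8 listed). Listed genes that were not tested fell under the minimum of FBF counts, which can raise these shares. Of the 11 genes for resolving intermediates, 6 of 11 tested were higher in spermatogenic and 5 of 10 tested in oogenic germlines. Of the SMC5/6 genes, 1 and 2 of 2 were. The partner of BRC-1, brd-1, was not called (1.58, adjusted p = 0.0378, and 1.26, adjusted p = 0.0881). The other largest fitted values were those of cdk-2, the kinase partner of COSA-1, and zhp-4, a relative of zhp-3, with 345 and 317 FBF counts and 0 control counts in spermatogenic germlines. Against a floor of 3 counts over the group these were at least 6.67-fold and 6.13-fold higher. In oogenic germlines they were zhp-1, also of that family, with 385 FBF counts against 1 (ratio 57.8, interval 10.3 to 2289), and helq-1, a helicase gene, with 301 against 1 (ratio 45.2, interval 8.05 to 1791).

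Between germlines, 1 of 50 listed genes was called, gen-1, a Holliday junction nuclease gene, at 1.14 (SE 0.15, adjusted p = 5.24e-06) higher in spermatogenic germlines; 10.2% of all RNAs were higher and 4.71% lower. FBF-1 libraries alone gave 0 calls and FBF-2 libraries alone 6, where 8.38% and 5.87% of RNAs were higher. Between proteins in spermatogenic germlines, lig-4 was higher with FBF-1 (1.00, adjusted p = 3.29e-05) and clk-2 (-1.27, adjusted p = 1.28e-08) and rec-1 (-1.04, adjusted p = 1.61e-08) were lower, of 46 tested, where 4% and 1.72% of all RNAs were. REC-1 is a further protein that promotes breaks and places crossovers. In oogenic germlines 7 of 41 were higher with FBF-1, led by hpr-9 (2.12), zhp-4 (1.66) and rad-54.B (1.47), where 3.95% of all RNAs were. DESeq2 called 0, where 0.591% were, and library-size scaling 17, where 18.5% were. The single lower one, where 4.12% of RNAs were, was rec-1 (-1.25, adjusted p = 3.97e-12), named after its values were seen. The interaction of antibody and germline called 0 of 50, where 1.04% of RNAs were higher and 0.919% lower, and that of protein and germline 2 of 46, him-18 (-1.69) and cku-80 (-0.99), both lower, where 2.28% of RNAs were. DESeq2 called 0, where 0.182% were lower, and library-size scaling 25, where 20.9% were.

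**Figure D4:**
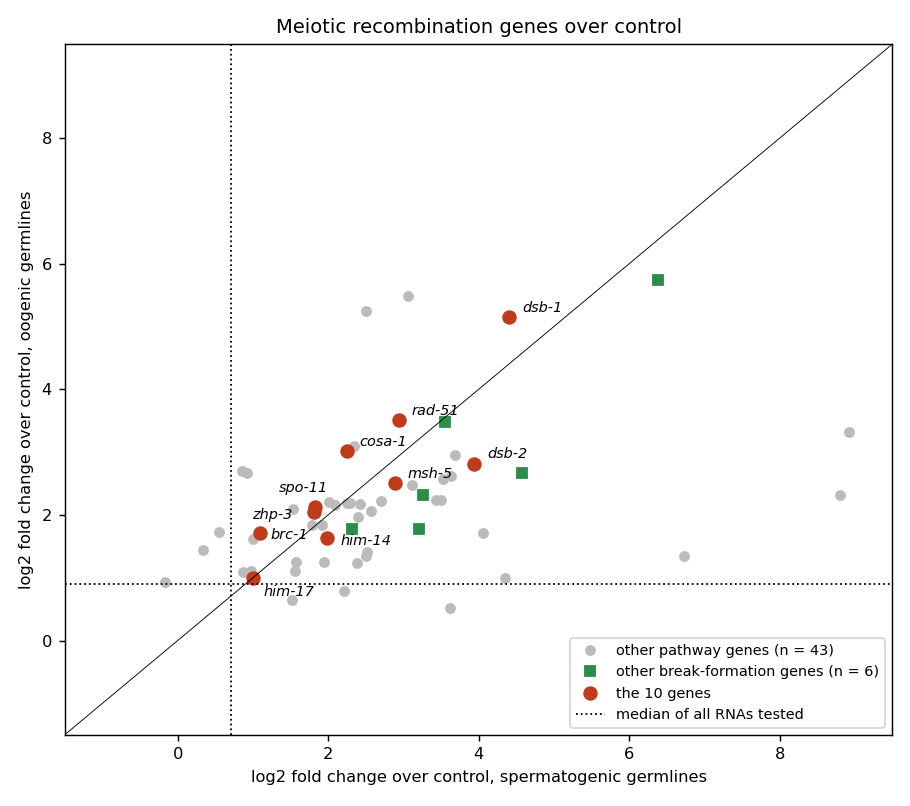
Log2 fold change over control in spermatogenic (horizontal axis) and oogenic germlines (vertical axis) for the 10 RNAs (red), 6 other break-formation genes (green squares) and 43 other genes of recombination (grey) tested in both germlines. The diagonal marks equal values and dotted lines the medians of all RNAs tested; the 3 grey points farthest right had 0 control counts in spermatogenic germlines, so their horizontal position has no firm upper limit, and all 10 named points lie above both medians.

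For dsb-1, rad-51 and msh-5, the RNAs whose level followed theirs most closely over the 18 libraries were found by Pearson's r of log2(RPM + 1) among 5950 RNAs. These were spat-2 (0.980) and htp-1 (0.978) for dsb-1, C02B10.5 (0.983) and Y48G1C.12 (0.982) for rad-51, and F01G4.4 (0.984) and C25A1.1 (0.973) for msh-5. The 18 libraries include controls and differ in depth and lane, which all RNAs share, so these values are a description of pattern only.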

How the data were processed

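RNA was measured by iCLIP in 18 libraries. In the methods of the study, reads were split by barcode, linkers clipped and local STAR alignments made. Multiply mapped reads and those scoring under 20 were dropped, duplicates collapsed by barcode and reads assigned to exons with HTSeq. The authors deposited raw counts per gene. The sample records also name Novoalign. For an oogenic FBF-1 replicate the study gives fewer unique, uniquely mapping reads than the 18749 counts of FBF-1 oogenic replicate 1. Whether the deposited counts passed all of these steps is therefore not established. Genome build, annotation and strand setting are not given in the sources used here. Entries for no feature (9.54% to 20.2% of a library) and ambiguous reads (0.568% to 1.93%) entered neither library sizes nor tests. Names and positions are from Ensembl release 115 (WBcel235), matched for 23821 of 26709 genes.

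The robust quasi-likelihood test of edgeR 4.0.16 (R 4.3.3, limma 3.58.1) was run on RNAs that averaged 20 counts or more in the FBF libraries of a comparison, with Benjamini-Hochberg adjustment over all of them. Library-size scaling was used over controls, TMM for germline and protein, and library sizes without rRNA, tRNA and mitochondrial counts for the interaction of antibody and germline. A call took more than 2-fold and an adjusted p under 0.01 (interactions, the p alone). DESeq2 1.42.0, other scalings, count minimums, controls, single proteins, a replicate block and leaving out each replicate were alternatives. The fit of protein by germline and the fits without the shallowest library with FBF-1 alone were added after the data were seen. RPM scales counts to 1000000 counts on genes, and figures used matplotlib 3.10.9 (Python 3.11.15). Replicates are biological, as the study states, and differed by more than sampling noise. Intervals of ratios are exact, at 95%, and cover counting error. The scripts were tested on simulated data.

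All 10 genes were named in every comparison, and of other listed genes the 3 largest changes among those called. The members and all lists, sperm, oocyte, germline, yolk, muscle and neuron markers included, were chosen with earlier results of these data known. The listed gene parg-1 was not analysed here.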

Additional observations from a re-analysis of the deposited data

How the results depend on the processing

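Members called over control numbered 7 in each germline. In spermatogenic germlines TMM, library sizes without rRNA, tRNA and mitochondrial counts, DESeq2 and no count minimum each gave 4, and leaving out single replicates 4 to 7. In oogenic germlines the first 3 of these gave 4, a mean of at least 100 counts 3 of 3 tested, spermatogenic controls 4, FBF-2 alone 4 of 4 tested and leaving out single replicates 4 to 9. No member changed sign in either, and dsb-1, dsb-2, rad-51 and msh-5 were called under each of 19 alternatives in spermatogenic and the 20 or 21 that tested them in oogenic germlines. The calls of spo-11, him-14 and zhp-3 were lost under 10 of 19, 7 of 18 and 9 of 19 in spermatogenic germlines, and those of spo-11, zhp-3 and cosa-1 under 6 of 19, 10 of 19 and 9 of 18 in oogenic ones. The controls of a germline held 2 to 14 counts of each of the 10 RNAs, which limits the precision of these values.

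Some differences that were not called changed sign. Between germlines these were spo-11 (FBF-2 alone 0.23, single replicates left out -0.43 to 0.0699), dsb-1 (library size 0.11, -0.31 to 0.0793), rad-51 (FBF-1 alone -0.0627, also -0.0646 without the shallow library, -0.0597 to 0.0947), cosa-1 (library size 0.0199), him-17 (FBF-1 alone -0.0186) and brc-1 (library size 0.14, DESeq2 0.0282, FBF-1 alone 0.0033, 6 separate libraries 0.0352, -0.13 to 0.12). For antibody and germline they were spo-11 (FBF-2 alone 0.33, -0.42 to 0.12), dsb-1 (-1.004 to 0.57), him-14 (-6.49 to 1.24), cosa-1 (-6.09 to 0.0744), zhp-3 (FBF-2 alone 0.55, -0.39 to 1.32), him-17 (library size -0.0125, FBF-1 alone -0.0669, also -0.0483 without the shallow library, -0.14 to 0.59) and brc-1 (-1.44 to 0.14). Between proteins in spermatogenic germlines they were rad-51 (DESeq2 -0.0070, -0.0578 to 0.0916) and him-14 (-0.26 to 0.11), and in oogenic ones msh-5 (library size 0.41, without rRNA, tRNA and mitochondrial counts 0.0206, no count minimum 0.0919, -0.26 to 0.0030) and him-17 (-0.0047 to 0.19). For protein and germline, with 3 alternatives, it was dsb-1 (library size -0.37). With no fold minimum, 1 member was higher between germlines, and 2 were lower with FBF-1 in spermatogenic and 2 in oogenic germlines; leaving out single spermatogenic replicates gave 0 to 1. Library size called 2 higher with FBF-1 in oogenic germlines and 3 lower for protein and germline. The -6.49 of him-14 came without oogenic control replicate 2, which left the oogenic controls at 0 counts, and is not a bound. The oogenic control counts of cosa-1 also lay in that replicate only. Causes of the other changes were not tested.

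Over all RNAs the calls ranged over the alternatives from 1523 to 3805 higher and 194 to 980 lower over spermatogenic controls, 790 to 2866 and 52 to 816 over oogenic controls, 120 to 1880 and 130 to 939 between germlines, and for FBF-1 against FBF-2 66 to 753 and 42 to 621 in spermatogenic and 28 to 874 and 59 to 541 in oogenic germlines. The interactions gave 50 to 128 higher and 28 to 101 lower for antibody and germline, and 93 to 227 and 10 to 1147 for protein and germline. Of the other listed genes, 26 to 42 were higher over spermatogenic controls, 16 to 39 over oogenic controls and 0 to 6 between germlines.

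Replicate numbers did not pair the libraries: same-numbered deviations correlated at -0.20 to 0.17, with 2 of 27 over 0.1 and no comparison of 9 with every pair over 0.1. With a replicate block, 5 and 7 members were called over spermatogenic and oogenic controls, 0 between germlines (brc-1 0.0035) and 1, dsb-2, between proteins. The search for FBF binding elements in 3' untranslated regions, with its alternatives, was not run, since no genome sequence was used here.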
